A study of Mus musculus with 4 samples.

Results

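The cells described here are the tenocytes, the fibroblast-like cells of tendon, among single cells isolated from skeletal muscle of a mouse model of Duchenne muscular dystrophy (DMD). Members were chosen by their own transcript counts: a barcode was kept when it had 200 or more detected genes and when mitochondrial genes gave no more than 20% of its unique molecular identifiers (UMIs, 1 per captured transcript). A kept barcode was a member with at least 3 UMIs of Tnmd, at least 3 of Fmod, 0 of Ptprc and at most 2 of Myog and Pax7 together. The rule found 233 members among 5674 kept barcodes, out of 6512 barcodes in all. By its title, the study asked how CRISPR components delivered in lipid nanoparticles (LNP) are distributed over the cells of muscle. It made 4 libraries by 3′ droplet sequencing: cells were isolated either in bulk or with a satellite cell isolation kit, and within each isolation 1 library came from vehicle and 1 from LNP-CRISPR treatment. All 4 groups share the DMD model. The strain, age, sex, dose, route, time after treatment and number of animals are not given in the sources used here. Such a kit is meant to enrich satellite cells, the muscle stem cells, so a tenocyte in a kit library is a cell that came through that enrichment.

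Tenocytes build and repair the tendon matrix. They line up between bundles of type I collagen, and they secrete the collagen chains, the enzymes that cross-link them, and the small leucine-rich proteoglycans and glycoproteins that set fibril width and spacing. Scx, a transcription factor, marks the lineage from early development; Mkx, a homeobox factor, supports collagen production; Tnmd is a membrane protein of mature tenocytes. Where muscle joins tendon, these cells lie beside the fibre tips, and where tendon meets bone or is compressed they take on features of cartilage.

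Each group is 1 library with no replicate, and no test between groups is given. Levels are given as CPM: the members' UMIs of a gene in 1 library, out of every 1000000 of their nuclear-encoded UMIs. With 3′ counting of 1 UMI per transcript they do not scale with gene length. Intervals are exact 95% intervals, Poisson for levels, binomial for shares and conditional binomial for ratios, and they cover counting error only. Where 4 values are given, the bulk pair comes first and the kit pair second, each with vehicle before LNP-CRISPR. A gene counts as higher or lower at a ratio of 1.5-fold or more, over genes with at least 20 UMIs in the 2 libraries together.

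The 4 libraries held 80, 98, 21 and 34 members, and 1204, 1152, 1411 and 1907 kept barcodes. Members had a median of 27846.5, 20005, 19081 and 21526.5 UMIs, and the other kept barcodes 21655, 15607, 8381 and 10134. The shallowest member held 5507, 1518, 1053 and 1862 UMIs. With at least 1000 detected genes required, 80, 89, 20 and 33 members were left. In all, 6 barcodes occurred in more than 1 library, none of them a member. No doublet caller was run. The conditions on Ptprc, Myog and Pax7 removed 2, 9, 0 and 0 barcodes, and 1, 2, 0 and 0 members held more than 3 times their library's median member count.

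The label was checked on tendon genes that the rule did not use. Thbs4, a thrombospondin of tendon matrix, stood at 9872, 10992, 15599 and 14049 CPM. Scx was found in 85.0%, 61.2%, 66.7% and 76.5% of members, at 361, 266, 192 and 382 CPM. Mkx was found in 87.5%, 73.5%, 81.0% and 67.6% of members. Such shares depend on depth, and the shallowest bulk member held 5507 UMIs in vehicle and 1518 in LNP-CRISPR. These 3 genes were present in all 4 libraries, and the label holds for most members. They were not confined to members. In bulk fibro-adipogenic progenitors 8 tenocyte markers summed to 1714 and 2023 CPM, of which Thbs4 made up 94.2% and 97.0%. In kit myogenic cells they summed to 86.8 and 111 CPM, of which Scx made up 96.2% and 95.4%. Comp, also on that list, was found in 81.25%, 81.6%, 47.6% and 55.9% of members. Chad, a cartilage-type leucine-rich protein given among the markers of the class, was uneven: it was found in 58.8%, 71.4%, 33.3% and 29.4% of members.

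The rule itself used Tnmd and Fmod, so their levels are a description. Tnmd lay at 2718, 2648, 2766 and 2573 CPM. Fmod, the collagen-binding proteoglycan fibromodulin, lay at 6494, 7021, 3474 and 2914 CPM. On the mouse genome build GRCm38, in the GENCODE M21 annotation, Tnmd is at chrX:133850980-133865577 and Fmod at chr1:134037254-134048277, both on the plus strand. Scx is at chr15:76457452-76459458 and Chad at chr11:94565047-94569127, both also on the plus strand.

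A few members went against the label. Of the kit members, 2 in vehicle and 1 in LNP-CRISPR carried 133 to 258 UMIs of Myh11, the smooth muscle myosin, and 254 to 434 of Acta2, the smooth muscle actin, with 0 Scx and 0 or 1 Thbs4 UMI. No bulk member had 10 Myh11 UMIs. The same profile stood just outside the rule: 14 vehicle kit and 49 LNP-CRISPR kit cells had at least 3 Tnmd UMIs but under 3 of Fmod, and Myh11 was found in all 14 and in 48 of the 49, at 9278 and 7415 CPM, with no Scx UMI. Just inside the rule, with a lower count of 3 or 4 of the pair, were 0, 4, 3 and 5 members. Just outside, with 1 or 2 of one gene and at least 3 of the other, were 11, 10, 7 and 21 cells.

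Markers of other cell types were read across all members. All 5 adipocyte markers were at 0 in every library, and the 6 T and NK cell markers summed to between 0 and 1.38 CPM. The 9 fibro-adipogenic progenitor (FAP) markers, of muscle's resident mesenchymal cells, summed to 854, 747, 324 and 598 CPM, of which Cxcl14 made up 47.8% to 77.1%. The 9 muscle fibre markers summed to 41.5, 43.7, 727 and 455 CPM, and the 7 neutrophil markers to 11.97, 96.1, 0 and 0 CPM. Other classes of the same libraries carried these markers too. Fibre markers summed to 1602 and 1254 CPM in the glial cells of the vehicle and LNP-CRISPR kit libraries, and to 1054 and 588 CPM in their smooth muscle cells. Neutrophil markers went from 12.9 CPM in vehicle bulk to 55.8 in LNP-CRISPR bulk in FAPs, from 8.45 to 48.9 in myogenic cells and from 25.7 to 231 in smooth muscle cells. In tenocytes 1 of 80 and 31 of 98 bulk members held 3 or more UMIs of the neutrophil list. S100a8, a neutrophil protein, was found in 51.0% of LNP-CRISPR bulk members and 67.0% of the immune cells of that library. The 9 satellite and myogenic markers summed to 567, 471, 1388 and 868 CPM, of which Chodl made up 91.4% to 98.4%, with Myf5 and Pax7 at 0 in 3 of the 4 libraries. The rule itself capped Pax7 and Myog, both among these markers, and allowed no Ptprc. Low sums of myogenic and immune markers were therefore partly set by it. The 9 pericyte and smooth muscle markers summed to 305, 349, 4541 and 1652 CPM. The 10 macrophage markers summed to 41.9, 61.1, 8.1 and 6.57 CPM, with 8 of 10 at 0 in both kit libraries, and the 8 endothelial markers to between 5.56 and 24.3 CPM. The 6 markers of tendon sheath and synovial lining summed to 2985, 3679, 1143 and 1482 CPM, of which Prg4 made up 65.6% to 82.4%, and the 7 chondrocyte markers to 283, 372, 116 and 106 CPM. Acta1, the fibre actin, was found in 100% and 94.1% of kit members, and in 97.2% and 85.9% of the glial cells of the same libraries, which do not make it.

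Collagen I dominated the matrix programme. Col1a1 reached 47853, 48248, 26777 and 25575 CPM, and its partner chain Col1a2 37218, 38486, 16501 and 18567 CPM. Sparc, a collagen-binding glycoprotein, lay at 23358, 22012, 11156 and 11274 CPM. Both bulk libraries were alike in these 3 genes and both kit libraries were lower. Decorin, Dcn, like Fmod a small leucine-rich proteoglycan, stood at 8627, 6822, 2593 and 4022 CPM.

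The minor fibrillar collagens that seed and limit fibril growth were also present. Col11a1 stood at 1613, 1770, 1742 and 1448 CPM and Col5a2 at 1283, 957, 1089 and 1115 CPM. Col11a2, a chain shared with cartilage, stood at 554, 626, 186 and 151 CPM. Cartilage collagen Col2a1 was found in 67.5%, 64.3%, 28.6% and 52.9% of members, at 147, 172, 29.7 and 82.8 CPM. Col22a1, a collagen of the muscle-tendon junction, stood at 583, 515, 1053 and 783 CPM, in the opposite direction to Col1a1: both kit libraries were above both bulk libraries.

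Against FAPs of the same bulk libraries (538 in vehicle and 330 in LNP-CRISPR, with at least 3 Pdgfra UMIs and 0 of Tnmd and Ptprc), the 10 genes with the widest gap by the naming rule were Tnmd, Chad, Cilp2, Fmod, Col22a1, Kera, Col11a2, Wif1, Col11a1 and Ptx4. Chad, Cilp2, a cartilage intermediate layer protein, and Kera, the proteoglycan keratocan, stood in members at 1145, 1192 and 980 CPM in vehicle and at 1354, 1403 and 1036 CPM in LNP-CRISPR. In FAPs, Chad stood at 0.546 and 0.913 CPM, Cilp2 at 1.26 and 2.16 CPM, and Kera at 3.82 and 1.83 CPM. Wif1, a secreted Wnt inhibitor, stood at 371 and 277 CPM in bulk members against 0.328 and 0.747 CPM in FAPs. In the other direction, Ccl11, the eosinophil-attracting chemokine, stood at 226 and 357 CPM in FAPs against 1.28 and 1.38 CPM in members. Col22a1 stood at 1.31 and 0.996 CPM, Col11a2 at 1.31 and 1.66 CPM, and Ptx4, a pentraxin, at 1.15 and 1.16 CPM in FAPs, all far below the levels of members. Cxcl5, a neutrophil chemokine, stood at 731 and 1422 CPM in FAPs against 15.4 and 12.4 CPM in members, and Efemp1, an elastic fibre protein, at 59.7 and 52.4 CPM against 0 and 0.46 CPM. Both cell classes were named by marker genes, so these levels are a description.

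**Figure D1:**
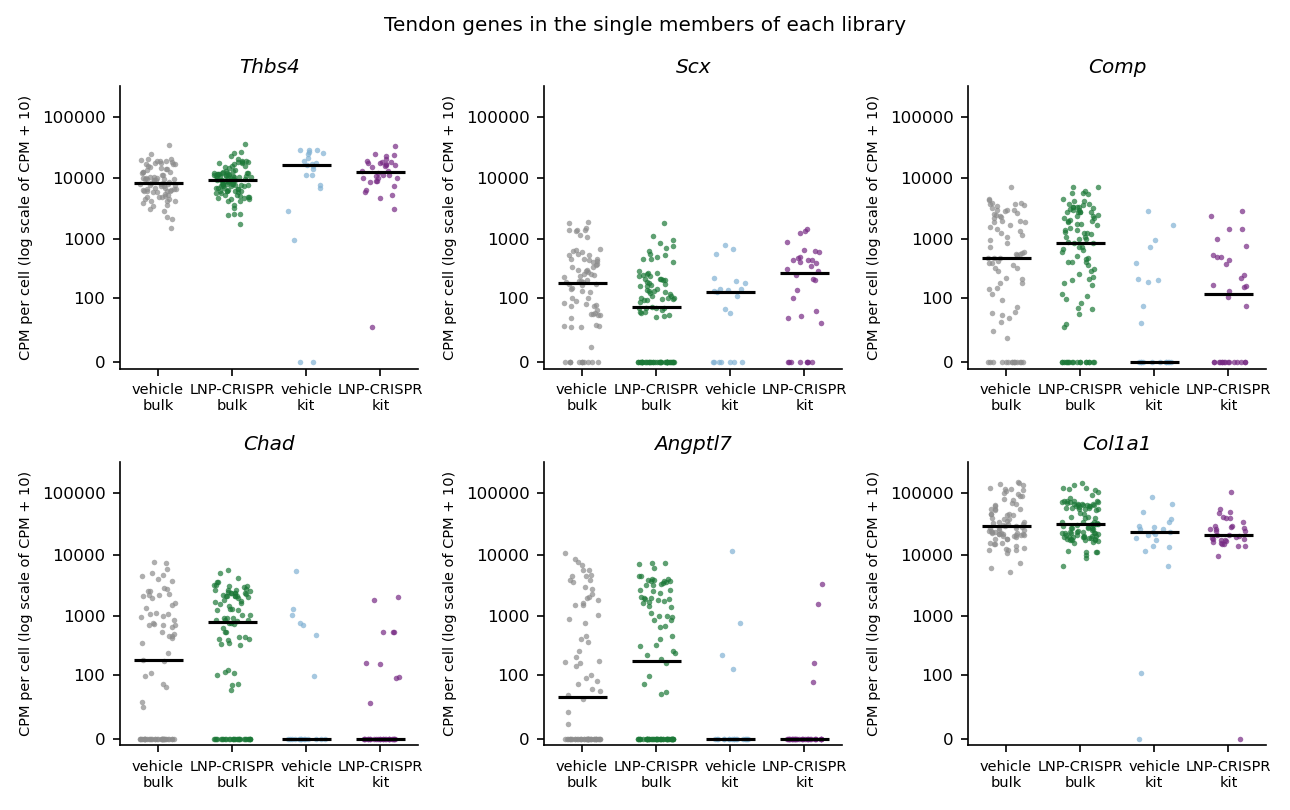
Levels of 6 tendon genes in every member, in CPM on a log scale of CPM + 10, by library; each point is 1 cell and each black bar the median cell. In the bulk libraries every member had Thbs4 and Col1a1, while Comp, Chad and Angptl7 ran from 0 upwards and had a median of 0 CPM in at least 1 kit library.

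Members differed among themselves more in some matrix genes than in others. In vehicle bulk, Thbs4 ran from 1533 to 35075 CPM between cells, with a median of 8326, and was found in every member. Col1a1 ran from 5175 to 152009 CPM with a median of 28800, and its Spearman correlation with Fmod was 0.74 in vehicle bulk and 0.43 in LNP-CRISPR bulk. Comp, cartilage oligomeric matrix protein, ran from 0 to 7180 CPM with a median of 487, and Chad from 0 to 7526 with a median of 180. In LNP-CRISPR bulk the medians were 9158 CPM for Thbs4, 881 for Comp and 786 for Chad. That library held shallower members than vehicle bulk, down to 1518 against 5507 UMIs. Their part in these medians and in the correlations below was not tested.

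Comp and Chad went up and down together from cell to cell. Their Spearman correlation across cells was 0.78 in the 80 vehicle bulk members and 0.80 in the 98 LNP-CRISPR bulk members. Fmod and Cilp2 gave 0.83 and 0.73, and Fmod and Comp 0.73 and 0.58. Thbs4 and Comp gave -0.17 and 0.01, and Comp and Scx -0.14 and -0.11. These correlations describe the cells of 1 library each, which share its depth and its free RNA. The rule used Fmod, so its correlations, that with Col1a1 included, cover only cells with at least 3 Fmod UMIs.

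When each bulk library was divided at its median Comp level, the cells with more Comp also held more collagen I. Col1a1 stood at 74496 CPM in the 40 vehicle bulk cells above the median and 21294 CPM in the 40 below, and at 69881 and 23508 CPM in the 49 and 49 cells of LNP-CRISPR bulk. Chad was 19.3-fold and 13.8-fold higher in the cells with more Comp, and Angptl7, an angiopoietin-like secreted protein, 28.8-fold higher in both libraries. Matn4, a matrilin that links matrix fibres, was 8.73-fold and 7.06-fold higher, and Prg4, the joint lubricant lubricin, 3.03-fold and 4.58-fold higher.

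Other genes ran the opposite way. Col3a1, the collagen of young and healing matrix, stood at 1644 CPM above the Comp median and 5644 below it in vehicle bulk, and at 1191 and 3849 CPM in LNP-CRISPR bulk. Tnc, tenascin C, was 0.514-fold and 0.742-fold as high in the cells with more Comp. Scx gave 0.424-fold (0.364 to 0.492) in vehicle bulk and 1.15-fold (0.970 to 1.36) in LNP-CRISPR bulk, or 0.885-fold there without the highest Scx cell, and the difference between the libraries was not tested. Thbs4 gave 0.878-fold and 0.957-fold. Median depth of the cells above and below the Comp median was 30177.5 and 26948.5 UMIs in vehicle bulk and 21491 and 19809 in LNP-CRISPR bulk. Since the cells were divided by a matrix gene, these ratios are descriptions.

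**Figure D2:**
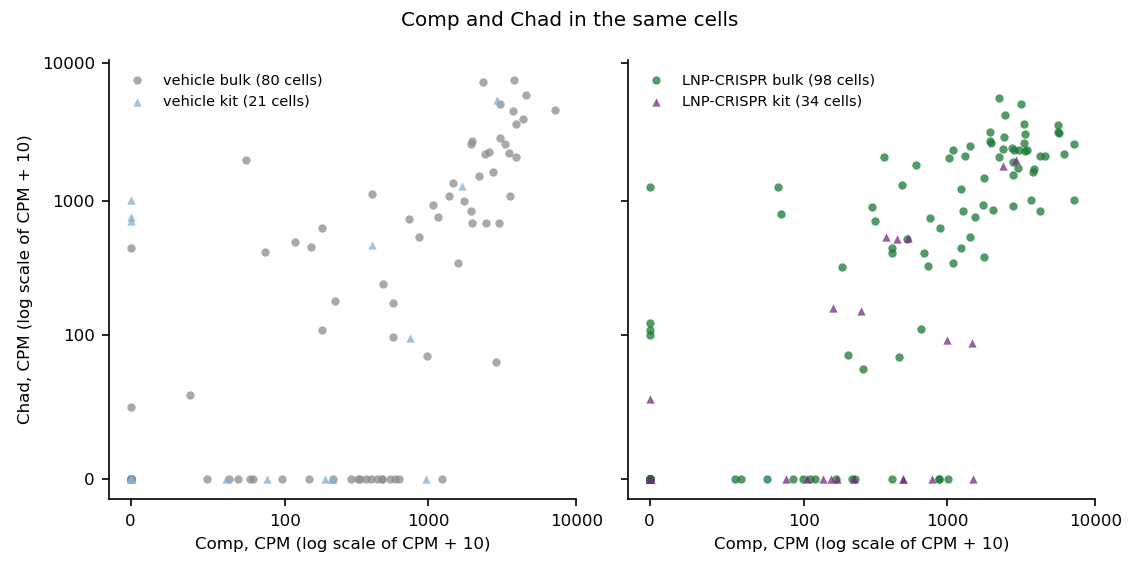
Comp against Chad in each member, both in CPM on a log scale of CPM + 10, with vehicle on the left and LNP-CRISPR on the right; circles are bulk and triangles kit cells. Bulk cells with more Comp had more Chad (Spearman 0.78 and 0.80), and most kit cells lay at the low end of both.

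The share of tenocytes was lower in the kit libraries. They made up 6.64% (5.30 to 8.2) of kept barcodes in vehicle bulk, 8.51% (6.96 to 10.3) in LNP-CRISPR bulk, 1.49% (0.924 to 2.27) in vehicle kit and 1.78% (1.24 to 2.48) in LNP-CRISPR kit. Kit over bulk, the ratio of shares was 0.224 (0.132 to 0.366) with vehicle and 0.210 (0.138 to 0.312) with LNP-CRISPR. LNP-CRISPR over vehicle, it was 1.28 (0.943 to 1.74) in bulk and 1.20 (0.676 to 2.17) in the kit, both intervals spanning 1. Counted over kept cells without Ptprc, a marker of immune cells, the bulk ratio was 1.51 (1.11 to 2.06) and its interval no longer spanned 1, while the kit ratio was 1.20 (0.679 to 2.18). With cells thinned to 5000 UMIs and the rule set at 1 UMI of each gene, kit over bulk came to 0.335 and 0.305. A share depends on every other cell in the library, so fewer tenocytes and more cells of other types cannot be told apart.

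Kit members held less of the tendon matrix programme than bulk members. Of the 8240 genes with enough UMIs in both treatments, 441 were higher in the kit with both (5.35%) and 370 lower with both (4.49%). The larger of the 2 counts turned with the cells used: without the 3 Myh11-rich members 374 were higher and 385 lower, and without the highest cell of each library 198 higher and 544 lower. Of 126 such matrix genes, 39 were lower with both treatments and 7 higher, or 35 and 7 without the 3 Myh11-rich members. Their median log2 ratio was -0.44 with vehicle (130 genes) and -0.30 with LNP-CRISPR (129 genes), beside 0.05 and 0.15 over all genes tested. Taken singly, the vehicle pair had 19% of its genes higher and 16.9% lower, and the LNP-CRISPR pair 18.1% higher and 11.8% lower. Matrix genes numbered 58 lower of 130 with vehicle and 47 lower of 129 with LNP-CRISPR. Leaving out every member with 3 UMIs of another class's markers turned both medians, to 0.42 and 0.10, with 5, 18, 3 and 5 members left. The glial markers alone, led by Pmp22, reached 3 UMIs in 75 of 80, 69 of 98, 17 of 21 and 26 of 34 members.

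The matrix lists were also counted one by one, with no test between them. Among small leucine-rich proteoglycans 7 of 11 were lower with both treatments and 0 higher, among matrix glycoproteins 11 of 23 and 0, among elastic fibre genes 5 of 16 and 0, and among fibrillar collagens 4 of 11 and 0. Without the Myh11-rich members the elastic fibre count was 4 lower, and Col24a1, at 1.54-fold and 2.31-fold, was a fibrillar collagen higher with both, from 1.37-fold and 2.20-fold. The 4 collagens were Col1a1, Col1a2, Col2a1 and Col11a2. The 7 proteoglycans were Dcn, Kera, Prelp, Ogn, Omd, Podn and Chad, of which 5 were lower without the Myh11-rich members. Of basement membrane genes 3 of 12 were higher and 0 lower: Col4a1 stood at 895, 793, 1402 and 1697 CPM, Col4a2 at 527, 531, 1018 and 1022 CPM, and Col18a1 at 188, 194, 435 and 381 CPM. In all 3 genes both kit libraries lay above both bulk libraries.

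Single genes showed how large the difference was. Matn4 stood at 340, 396, 40.5 and 39.4 CPM, so kit over bulk was 0.119 (0.0663 to 0.198) with vehicle and 0.0995 (0.0667 to 0.143) with LNP-CRISPR. Comp stood at 1274, 1626, 332 and 398 CPM, with ratios of 0.261 (0.216 to 0.312) and 0.245 (0.217 to 0.275), the first becoming 0.158 without the highest cell of each library. Col1a1 gave 0.560 (0.548 to 0.571) and 0.530 (0.522 to 0.538). Lox, which cross-links collagen, stood at 1905, 2130, 432 and 1192 CPM, with ratios of 0.227 (0.193 to 0.266) and 0.559 (0.520 to 0.601). In all 4 genes both kit libraries lay below both bulk libraries. Chad, at 1145, 1354, 486 and 162 CPM, gave 0.425 (0.363 to 0.494) and 0.119 (0.0988 to 0.143), or 0.213 and 0.0718 without the highest cells.

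Angptl7 rested on 1 cell in the vehicle kit. Its levels were 1257, 1124, 637 and 175 CPM, and it was found in 53.8%, 55.1%, 19.0% and 11.8% of members. Kit over bulk was 0.507 with vehicle and 0.0473 once the highest cell of each library was left out, and 0.155 and 0.0479 with LNP-CRISPR. Spp1, the secreted phosphoprotein osteopontin, stood at 1184, 135, 8.10 and 11.8 CPM, and Matn3, a cartilage matrilin, at 76.1, 120, 2.70 and 6.57 CPM, the kit values resting on 1 to 9 UMIs. Chrdl1, a BMP antagonist, stood at 100, 105, 8.10 and 11.8 CPM. A single vehicle bulk cell held 89.4% of that library's Spp1 UMIs, and the ratio of LNP-CRISPR over vehicle, 0.114, became 0.872 without the highest cells. Pcolce2, a helper of procollagen cleavage, stood at 123, 95.2, 10.8 and 10.5 CPM.

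Not every tendon gene was lower in the kit. Thbs4 was 1.58-fold (1.53 to 1.63) and 1.28-fold (1.25 to 1.31) as high in the kit, Col22a1 1.81-fold (1.61 to 2.02) and 1.52-fold (1.37 to 1.68), and fibronectin, Fn1, 1.43-fold (1.37 to 1.49) and 1.27-fold (1.23 to 1.31). Ptx4 stood at 339, 321, 505 and 380 CPM. Scx went in opposite directions, at 0.531-fold (0.411 to 0.677) with vehicle and 1.44-fold (1.25 to 1.66) with LNP-CRISPR. Tnc did as well, at 0.451-fold (0.389 to 0.521) and 2.47-fold (2.28 to 2.67), and these reversals were not tested. Without the highest cells Tnc gave 0.433-fold and 1.78-fold. Its median member differed little, at 585, 511, 605 and 500 CPM, and a single LNP-CRISPR kit cell held 36.8% of that library's Tnc UMIs.

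The kit members were also compared with the spread of bulk members. Among kit cells, 4 of 21 in vehicle (19.0%, 5.45 to 41.9) and 5 of 34 in LNP-CRISPR (14.7%, 4.95 to 31.1) held more Comp than the median bulk cell of the same treatment. For Matn4 the counts were 2 of 21 and 2 of 34, and for Chad 6 of 21 and 2 of 34. For Col3a1, which was high in the bulk cells with little Comp, they were 10 of 21 and 25 of 34. The 8 genes highest in the kit by the naming rule were Mylpf, Tnni2, Myl1, Acta1, Tnnc2, Tnnt3, Ckm and Des, all muscle genes. Mylpf, a fast myosin light chain, stood at 11.1, 11.5, 238 and 147 CPM in members and at 506 and 419 CPM in the kit glial cells. The part of fibre RNA in the other kit values was not tested.

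**Figure D3:**
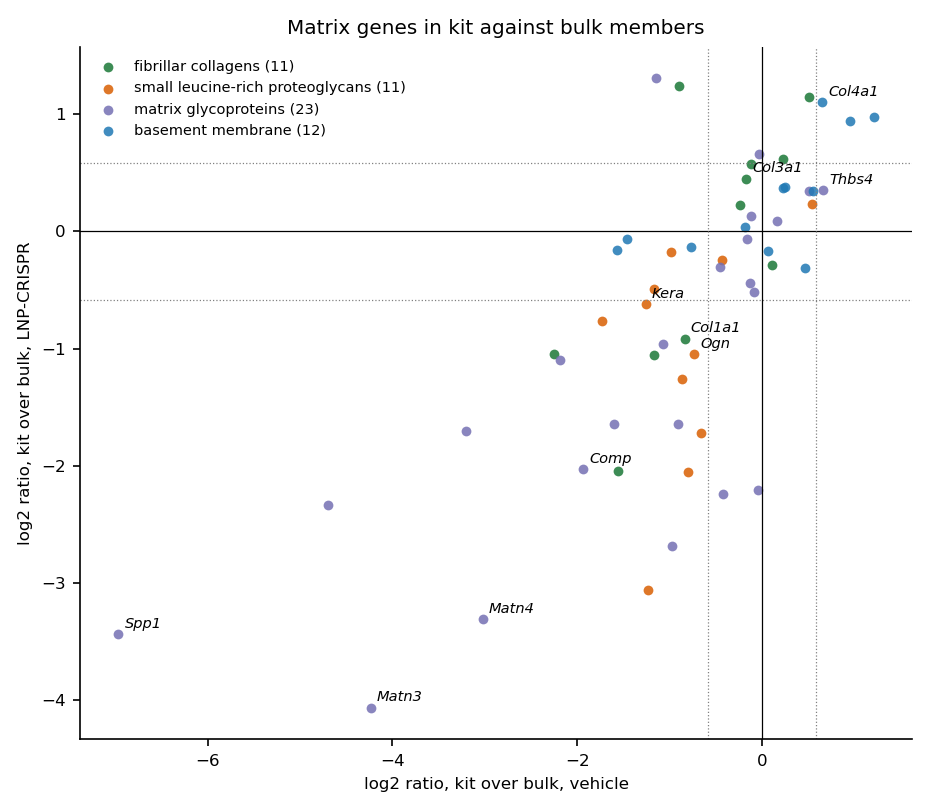
Log2 ratios of kit over bulk for matrix genes of 4 lists, with vehicle on the horizontal and LNP-CRISPR on the vertical axis; dotted lines mark 1.5-fold. Matn3, Matn4, Spp1 and Comp lie at the lower left, and the basement membrane gene Col4a1 at the upper right.

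In bulk members the matrix programme with LNP-CRISPR was close to that with vehicle. Of 9774 genes, 545 were at least 1.5-fold higher with LNP-CRISPR (5.58%) and 1266 lower (13%). Of 130 matrix genes, 4 were higher and 20 lower, with a median log2 ratio of -0.11, beside -0.10 over all genes tested, so the share of matrix genes that were lower lay near that of all genes. None of the 11 proteoglycans passed 1.5-fold in either direction, nor did any of the 7 tendon identity genes outside the rule. Col1a1 gave a ratio of 1.01 (0.9998 to 1.02), Col1a2 1.03 (1.02 to 1.04) and Comp 1.28 (1.22 to 1.34).

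Among the 20 lower matrix genes, 4 were chosen after their values were seen. Tnc stood at 1185 CPM in vehicle bulk and 626 in LNP-CRISPR bulk, a ratio of 0.528 (0.495 to 0.564). Col3a1 stood at 3647 and 2431 CPM, at 0.667 (0.644 to 0.690). Mfap5, a microfibril glycoprotein, stood at 418 and 123 CPM, at 0.294 (0.256 to 0.337), and Col15a1 at 116 and 37.2 CPM, at 0.321 (0.248 to 0.413). In the kit pair these 4 were not lower: Tnc gave 2.89 (2.48 to 3.38), Col3a1 1.02 (0.953 to 1.09), Mfap5 1.44 (0.937 to 2.28) and Col15a1 0.869 (0.434 to 1.81). Without the highest cells the kit ratios were 2.25 for Tnc, 2.20 for Mfap5 and 9.13 for Col15a1. The median member held 585 and 511 CPM of Tnc in bulk, and 605 and 500 CPM in the kit. FAPs held more Mfap5, at 1718 and 1671 CPM in the bulk libraries, and more Col15a1, at 592 and 539 CPM. The summed FAP markers of bulk members were 854 CPM in vehicle and 747 in LNP-CRISPR, and their part in the result was not tested.

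Inflammatory genes of the NF-kB pathway had the highest median of the lists compared in bulk. NF-kB is a family of transcription factors held in the cytoplasm by inhibitors such as Nfkbia, and released by cytokine and danger signals to switch on chemokines, adhesion molecules and its own inhibitors. In bulk 23 of 34 listed genes were at least 1.5-fold higher and 1, the complement gene C3, lower, with a median log2 ratio of 0.75. Neutrophil markers summed to 11.97 and 96.1 CPM in the same members. Without the members holding 3 or more UMIs of those markers, which left 79 in vehicle and 67 in LNP-CRISPR, 17 of 34 were higher and 2 lower, with a median of 0.59, where 6.3% of all genes were higher and 14.4% lower. In the kit, where neutrophil markers were at 0, 12 of 26 were higher and 4 lower, with a median of 0.50, or 0.73 without the Myh11-rich members, where 14.9% of all 6084 genes were higher, 15% lower and the median was 0.01.

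Among feedback inhibitors, Tnfaip3, the ubiquitin-editing protein A20, stood at 25.6, 194, 35.1 and 81.5 CPM, 7.55-fold higher with LNP-CRISPR in bulk (5.75 to 10.1) and 2.32-fold in the kit (1.26 to 4.60). Nfkbia stood at 417, 1021, 435 and 916 CPM. In both genes both LNP-CRISPR libraries lay above both vehicle libraries. Bcl3, a nuclear cofactor of the pathway, stood at 17.1, 42.8, 13.5 and 34.2 CPM.

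Among chemokines, Ccl2, which draws monocytes, stood at 139, 547, 140 and 712 CPM and was found in 38.8%, 66.3%, 19.0% and 50% of members. Its ratio was 3.93 (3.48 to 4.46) in bulk and 5.07 (3.81 to 6.88) in the kit. The highest member held 33.8%, 17.6%, 67.3% and 56.3% of its library's Ccl2 UMIs. Each kit level, and so the kit ratio, therefore rested mostly on a single cell per library, which the counting interval does not cover. FAPs held 2048 and 3904 CPM of Ccl2 in the bulk libraries, and glial cells of the kit 2.65 and 24.6 CPM. The LNP-CRISPR kit library held 3 FAPs and the vehicle kit library 0. Ccl7, a related chemokine, stood at 19.7, 122, 0 and 47.3 CPM. Cxcl2, which draws neutrophils, stood at 10.7, 90.1, 5.4 and 6.57 CPM, the kit values being 2 and 5 UMIs. Immune cells of the bulk libraries held 2987 and 5256 CPM of it, and its bulk ratio of 8.43 (5.55 to 13.3) became 4.24 (2.61 to 7.07) without the members holding neutrophil markers. There Tnfaip3 came to 5.39 (4.0 to 7.35), Ccl2 to 3.75 (3.28 to 4.29) and Nfkbia to 2.50 (2.30 to 2.72). Cxcl1 stood at 196, 380, 330 and 332 CPM, with ratios of 1.94 (1.73 to 2.18) in bulk and 1.01 (0.810 to 1.26) in the kit.

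Among adhesion molecules, Vcam1 stood at 53, 186, 10.8 and 114 CPM, with ratios of 3.50 (2.86 to 4.32) and 10.6 (3.99 to 39.7), the vehicle kit value resting on 4 UMIs and the kit ratio becoming 29.4 without the highest cells. Icam1 stood at 71.4, 165, 91.8 and 76.2 CPM, higher in bulk at 2.32 (1.92 to 2.80) and not in the kit at 0.830 (0.534 to 1.31). Nfkbiz, a further inhibitor-like gene, was 1.97-fold (1.64 to 2.37) as high in bulk and 0.529-fold (0.347 to 0.807) in the kit.

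The DNA just upstream of these genes was searched for the core NF-kB motif, GGGNNNTTCC or its reverse complement GGAANNNCCC, in the 250 bases before each RefSeq gene or transcript start on GRCm38.p6. Of the 38 listed genes 29 had such a promoter, and 10 of them (34.5%) held the motif, against 5.31% of 27025 genes in the table. The listed genes were chosen as genes of this pathway, so these shares describe the list and not the members. In bulk 7 of the 9 tested with it and 11 of the 17 tested without it were higher, and the difference was not tested. Those with the motif that were not higher were Csf1, with a bulk ratio of 1.11 (0.903 to 1.37), Cxcl10, with 0.837 (0.651 to 1.07), and Ccl20, which had too few UMIs to be tested. Windows of up to 60 bases from 3 of the genes higher in bulk and from Cxcl10 are shown 5′ to 3′ on the gene's strand, with the motif in capitals, because they show the site beside the level of the gene it stands before:
Nfkbia: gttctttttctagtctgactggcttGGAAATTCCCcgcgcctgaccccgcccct
Cxcl2: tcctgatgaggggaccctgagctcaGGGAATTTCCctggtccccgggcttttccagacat
Cxcl1: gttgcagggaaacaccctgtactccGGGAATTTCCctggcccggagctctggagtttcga
Cxcl10: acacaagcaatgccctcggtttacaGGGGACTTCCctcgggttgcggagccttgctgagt
They lie at chr12:55492648-55492701 on the minus strand, chr5:90903777-90903836 on the plus strand, chr5:90891149-90891208 on the plus strand and chr5:92348959-92349018 on the minus strand. The motifs begin 29, 97, 71 and 104 bases before the start. In Cxcl2 and Cxcl1 the motif overlaps its own reverse complement, offset by 1 base. A further match begins 78 bases before the start in Cxcl2, 89 in Cxcl1 and 159 in Cxcl10. A match is a description of the letters and not a measured binding site.

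Interferon genes were higher for 12 of 30 in bulk and lower for 3, with a median log2 ratio of 0.39. Over all genes 5.58% were higher and 13% lower in bulk, and 14.9% and 15% in the kit. Of the 30, 9 had an interval above 1 and 2 below 1. Without the members holding neutrophil markers 8 of 26 were higher (30.8%) and 5 lower (19.2%), with a median of 0.22. There 6.3% of all genes were higher and 14.4% lower. In the kit 7 of 9 were higher and 1 lower, with a median of 1.33, or 5 of 7 and 1 with a median of 1.22 without the Myh11-rich members. Irf9, a subunit of the interferon-activated factor, stood at 23.1, 35.4, 8.10 and 36.8 CPM, and Ifitm3, a membrane antiviral protein, at 478, 555, 348 and 635 CPM. Isg15, a ubiquitin-like interferon product, stood at 8.98, 3.22, 5.4 and 19.7 CPM. Ifit1 was found in 3.75% and 6.12% of bulk members, and its bulk ratio of 3.93 became 37.0 without the highest cell of each library.

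Ccn2, the connective tissue growth factor that follows TGF-beta and stretch, stood at 874, 2716, 935 and 1976 CPM. Its ratios were 3.11 (2.96 to 3.27) in bulk and 2.11 (1.88 to 2.38) in the kit, and both LNP-CRISPR libraries lay above both vehicle libraries. FAPs of the same bulk libraries held 319 and 352 CPM of Ccn2. Its list as a whole had 2 of 17 higher and 2 lower in bulk and 3 of 16 higher and 4 lower in the kit. Over all genes 5.58% were higher and 13% lower in bulk, and 14.9% and 15% in the kit, so these counts lay near the background. Ccn1, a related factor, stood at 525, 518, 413 and 251 CPM.

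Against the same shares, heat shock genes had 4 of 19 lower in bulk and 0 higher, among them Hspa1a at 124 and 68.0 CPM and Hspa1b at 191 and 75.9 CPM. In the kit 4 of 17 heat shock genes were higher and 3 lower, with a median log2 ratio of 0.22. Immediate early genes were lower in the kit for 11 of 25, among them Fos at 2877 CPM in vehicle and 1478 in LNP-CRISPR, and Atf3 at 419 and 98.5 CPM; in bulk 2 of 26 were lower and 2 higher. Both groups are known to answer to tissue dissociation, whose part was not tested. Cholesterol synthesis genes were higher in the kit for 6 of 8, and in bulk 0 of 15 were higher and 3 lower. Of the 8 in the kit, 2 had an interval above 1, and 5 were higher without the Myh11-rich members. None of the 20 genes of the unfolded protein response and none of 10 genes of lipoprotein and particle uptake passed 1.5-fold in bulk. Of 23 targets of p53, which DNA breaks activate, 3 were higher and 2 lower in bulk. In bulk the lower counts of heat shock and cholesterol genes and the higher count of p53 targets are 4, 3 and 3 genes, beside 13% lower and 5.58% higher over all genes. Cdkn1a stood at 77.8, 81.4, 162 and 142 CPM. The gene mutated in the model, Dmd, stood at 17.5, 15.6, 16.2 and 13.1 CPM, and its relative Utrn at 87.2, 84.1, 132 and 77.5 CPM.

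Cell cycle genes had the widest gap and rested on 5 cells. In bulk 15 of 22 were lower with LNP-CRISPR, with a median log2 ratio of -3.01, and in the kit 9 of 11 were higher, with a median of 2.79, or 9 of 10 and 4.02 without the Myh11-rich members. Cells with at least 5 UMIs of 6 cycling genes numbered 4 of 80 in vehicle bulk (5%, 1.38 to 12.3), 0 of 98 in LNP-CRISPR bulk (0 to 3.69), 0 of 21 in vehicle kit (0 to 16.1) and 1 of 34 in LNP-CRISPR kit (2.94%, 0.0744 to 15.3). A vehicle bulk cell with 135639 UMIs, the deepest member, held 305 of that library's 621 UMIs of these genes.

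By the naming rule, the 12 genes highest with LNP-CRISPR in bulk were Cas9, Rnd1, Ifit1, Igfbp2, Slpi, Il1rl1, Tnfaip3, Hba-a2, Cxcl2, S100a8, Ccl7 and Ccl2. Several rested on few cells: Il1rl1, the interleukin-33 receptor, was found in 10.0% and 13.3% of bulk members, and Rnd1, a small GTPase, in 2.5% and 14.3%. Hba-a2, a globin of red blood cells, stood at 1.71, 27.6, 0 and 3.94 CPM. The 12 lowest were the cell cycle genes Tpx2, Top2a, Mki67, Stmn1, Diaph3, Cenpa, Prc1, Cenpe, Lockd and Cdca8, with Scn7a and Tac1. Scn7a, a sodium channel gene, stood at 35.9, 1.38, 0 and 1.31 CPM in members and at 207 and 215 CPM in bulk FAPs. Tac1, the substance P precursor, stood at 51.3, 5.06, 29.7 and 5.26 CPM, and both LNP-CRISPR libraries lay below both vehicle libraries.

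**Figure D4:**
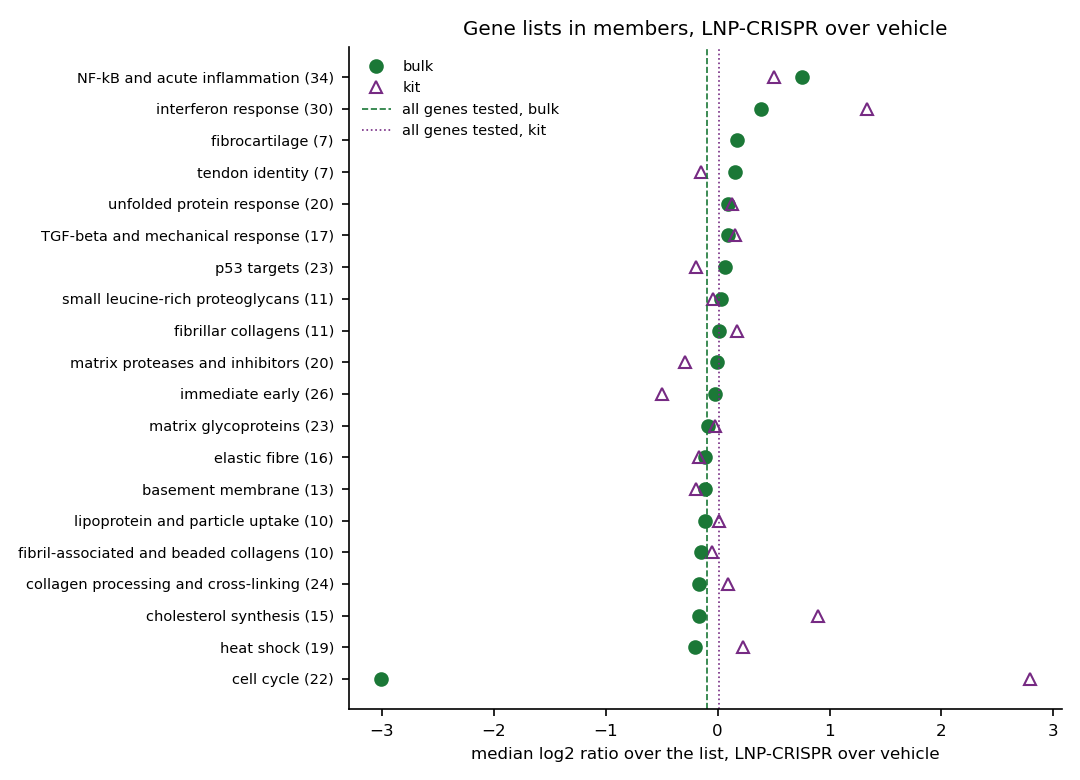
Median log2 ratio of LNP-CRISPR over vehicle for each gene list, with bulk as filled circles and kit as open triangles; numbers give the genes tested in bulk and vertical lines the median over all genes. The NF-kB list lies right of the lines in both isolations (0.75 and 0.50), the 9 matrix lists run from -0.17 to 0.16 in bulk and from -0.30 to 0.17 in the kit, and the cell cycle list lies at -3.01 in bulk and 2.79 in the kit.

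Cas9 transcript, which the nanoparticles carry, was read in tenocytes of both isolations. It reached 701 CPM (666 to 737) in LNP-CRISPR bulk and 795 CPM (733 to 861) in LNP-CRISPR kit. Both vehicle libraries had 0 UMIs in members, where 3 counts would be 1.28 and 8.10 CPM. Of bulk members 86.7% (78.4 to 92.7) had at least 1 UMI and 44.9% (34.8 to 55.3) at least 4, and of kit members 94.1% (80.3 to 99.3) and 52.9% (35.1 to 70.2).

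A few cells held most of it. In bulk the median member had 3 UMIs and the highest 530, the top 10 cells held 72.2% of the UMIs, and the level without the highest cell was 465 CPM. In the kit the median was 4.5, the highest 192, the top 4 cells held 63.1%, and the level without the highest cell was 552 CPM. Averaged with each cell at equal weight, bulk stood at 695 CPM and the kit at 1158 CPM.

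Tenocytes held less Cas9 than FAPs in bulk and more than the other classes of the kit. In bulk, FAPs stood at 1565 CPM (1543 to 1588), so tenocytes had 0.448-fold as much (0.425 to 0.472). The gap was wider without the highest cell of each class, at 0.312-fold. It was also wider with each cell at equal weight, at 695 CPM in tenocytes and 2108 CPM in FAPs. At least 4 UMIs were held by 44.9% of tenocytes and 66.4% of FAPs, at median depths of 20005 and 31746 UMIs. Median cells differed less, at 225 CPM in tenocytes and 261 in FAPs. After thinning to 1000 UMIs, 33.7% (24.4 to 43.9) and 40.7% (35.4 to 46.3) of cells had a UMI, with overlapping intervals. The top 33 of 330 FAPs held 65.8% of their Cas9 UMIs, and the top 10 of 98 tenocytes 72.2%. Myogenic cells of bulk stood at 70.1 CPM and smooth muscle cells at 272 CPM, or 101 without the highest cell. Immune cells stood at 865 CPM, or 452 without their highest cell, against which tenocytes gave 0.810 (0.762 to 0.861) and 1.03 without the highest cells. In the kit, myogenic cells stood at 181 CPM, smooth muscle cells at 97.5 CPM and glial cells at 81.1 CPM, or 22.6 without their highest cell. Tenocytes there had 4.38-fold (4.01 to 4.79) as much as myogenic cells.

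Kit over bulk, Cas9 in tenocytes came to 1.13 (1.03 to 1.25), while in all other kept cells, whose types differ between isolations, it came to 0.161 (0.157 to 0.165). Glial cells served as the measure of free RNA in the LNP-CRISPR kit library: 13.3% had at least 1 UMI and 1.44% at least 4, at a median depth of 8619 UMIs against 21526.5 in tenocytes. With every cell thinned to 1000 UMIs, 29.4% (15.1 to 47.5) of kit tenocytes and 2.62% (1.21 to 4.92) of kit glial cells still had a Cas9 UMI, so in the kit the tenocyte share stood above the glial share at equal depth. Thinning draws UMIs at random, which the intervals do not cover. Thinned without the Myh11-rich member, the kit tenocyte share was 39.4% (22.9 to 57.9). LNP-CRISPR bulk held 15 glial cells, too few for such a measure. There 75% of the 20 myogenic cells had at least 1 UMI, and after thinning 5% (0.127 to 24.9) of them did, beside the 33.7% of tenocytes, with intervals that overlapped. The part of free Cas9 RNA in bulk was not tested.

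**Figure D5:**
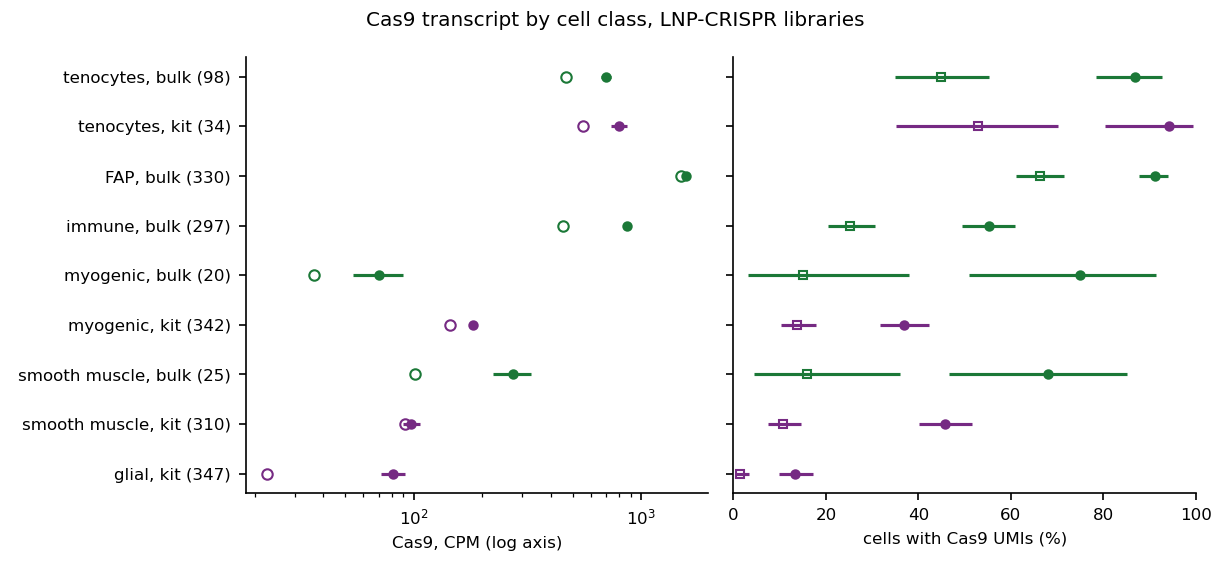
Cas9 by cell class in the LNP-CRISPR libraries, bulk in green and kit in purple, with cell numbers in brackets. Left, CPM on a log axis, filled with its 95% Poisson interval and open without the highest cell; right, percent of cells with at least 1 UMI (circles) and at least 4 UMIs (squares) with 95% binomial intervals. Tenocytes of both isolations lie at 701 and 795 CPM, below FAPs and above the kit's other classes.

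Within LNP-CRISPR bulk, 44 members with at least 4 Cas9 UMIs were set beside 33 with 0 or 1. They are cells of 1 library and differ in depth, with medians of 21810 and 15782 UMIs, so the ratios describe these cells and no test is given. Of 7123 genes 8.86% were higher in Cas9-rich cells and 16.4% lower. Interferon genes were higher for 15 of 21 and lower for 0, with a median log2 ratio of 1.10, against -0.15 over all genes. Of the 21, 12 had an interval above 1 and 0 below 1. Ifit1, found in few members of this library, stood at 135 CPM in Cas9-rich cells and at 0 in Cas9-poor cells. Isg15, with few UMIs, stood at 4.35 and 3.62 CPM, a ratio of 1.20 (0.196 to 12.6).

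On the NF-kB list 11 of 33 were higher and 1 lower, with a median of 0.14, and the difference from the interferon list was not tested. Il6, a cytokine, was 4.62-fold (3.1 to 7.15) as high, while Ccl2 gave 0.763 (0.666 to 0.875), or 1.29 without the highest cells, and Nfkbia 0.756 (0.682 to 0.837). Matrix glycoproteins were higher for 8 of 23 and lower for 0. Comp gave 1.64 (1.5 to 1.79), Chad 1.60 (1.44 to 1.77) and Col1a1 1.44 (1.41 to 1.46). Pcolce2 stood at 128 and 27.2 CPM, or 18.6-fold apart without the highest cells. Clu, the chaperone clusterin, stood at 104 and 9.06 CPM and Ndufa4l2, a mitochondrial protein, at 222 and 52.5 CPM. Igfbp2, an insulin-like growth factor carrier, went the other way at 6.96 and 94.2 CPM. In the cells divided at the Comp median of the same library, Cas9 stood at 862 CPM above it and 517 CPM below, a ratio of 1.67 (1.5 to 1.85). The cell with most Cas9, which held 530 of the library's 1525 Cas9 UMIs, lay above the median. Without it the levels were 418 and 517 CPM and the ratio turned to 0.808 (0.712 to 0.917).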

How the data were processed

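The deposited files hold raw UMI counts per gene and barcode, 1 matrix per library. Per the file headers they were made with Cell Ranger 5.0.1; version 7.0.1 and the build mm10 stand in the submitters' processing notes. Counts were read as deposited with Python 3.11.15, numpy 2.4.6, scipy 1.17.1 and pandas 2.3.3, and drawn with matplotlib 3.10.9. Rows of the 38 repeated gene symbols were summed. Library totals ran from 25921795 to 40666916 UMIs. Counts were summed over members and divided by nuclear-encoded UMIs; log2 ratios used 0.5 added to each count. Named genes were the 12 highest and 12 lowest ratios (LNP-CRISPR over vehicle), 8 and 8 (kit over bulk), 10 and 10 (against FAPs) and 5 and 5 (Cas9-rich against poor), ranked by the interval bound nearest 1 without the highest cells, the 3 most abundant genes of each list, and a set of tendon genes. Others were chosen after their values were seen. Members and gene lists were chosen with earlier results of these data known. Counting was tested on simulated data. Alternatives covered the rule, depth, cell weighting, gene filter, scaling, Myh11-rich members and members holding neutrophil markers.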

Additional observations from a re-analysis of the deposited data

Results flagged for a closer look

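Cell cycle genes pointed in opposite directions in the 2 isolations, each of 1 library per treatment, so the difference was not tested. Their list had a median log2 ratio of LNP-CRISPR over vehicle of -3.01 in bulk and 2.79 in the kit. Single genes with intervals, bulk then kit, were Top2a at 0.0246 (0.00789 to 0.0582) and 13.6 (2.25 to 557), Mki67 at 0.0172 (0.00206 to 0.0635) and 13.6 (4.50 to 67.4), and Stmn1 at 0.0310 (0.00832 to 0.0810) and 7.62 (2.45 to 38.3). Cenpa gave 0.0468 (0.00941 to 0.142) and 8.51 (2.19 to 73.0), Prc1 0.0430 (0.0137 to 0.103) and 20.4 (3.47 to 826), Cenpf 0.0151 (0.000378 to 0.0872) and 59.8 (10.5 to 2382), and Hmgb2 0.182 (0.140 to 0.235) and 2.33 (1.54 to 3.63). The bulk values rested on 4 cycling vehicle cells and the kit values on 1 LNP-CRISPR cell. Without the highest cell of each library Hmgb2 in the kit came to 0.975.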

How the results depend on the processing

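Each group is 1 library, so no value has a replicate check, and depth limits the kit, where the vehicle library had 21 members. No paired analysis was possible because the labels carry no replicate numbers and each group has 1 library. With kept cells without Ptprc as denominator, the LNP-CRISPR share ratio of kit over bulk was 0.128, and LNP-CRISPR over vehicle in bulk was 1.51 (1.11 to 2.06), against 1.28 (0.943 to 1.74). Cas9 in bulk was 465 CPM without the highest cell, 461 without members of 3 UMIs of another class and 927 thinned to 3000 UMIs; in the kit it was 552, 551 and 1051, and 623 with Tnmd and Fmod of at least 2, 496 at a mitochondrial share of at most 10% and 1158 with equal weights. Counts of genes past 1.5-fold moved with the number tested. LNP-CRISPR over vehicle in bulk, higher and lower, there were 160 and 248 (another class), 344 and 459 (thinned) and 145 and 258 (at least 100 UMIs), and 944 higher with equal weights. Kit over bulk there were 36 and 19, 110 and 94, and 122 and 130; higher alone, 855 with at least 2 UMIs, 198 without the highest cell (544 lower) and 291 scaled to the median gene. The matrix median for LNP-CRISPR in bulk was -0.0382 scaled to the median gene; kit over bulk it was 0.42 and 0.10 without members of another class, from 3 and 5 kit cells, and -0.53 for LNP-CRISPR with at least 2 UMIs. The fibrocartilage median for LNP-CRISPR in bulk, 0.18, was -0.000865 with equal weights. Of 114 alternatives for the answers to comparisons 28 moved and 2 reversed, those of the matrix medians above. Of 215 for list medians 210 stayed within the order-statistic interval of the median over the list's genes, 4 moved and 1, that of fibrocartilage, reversed. Of 896 for named genes, in LNP-CRISPR over vehicle in bulk and in kit over bulk, 710 stayed within the counting interval and 0 reversed a 1.5-fold ratio. Genes named by their ratio had been ranked without the highest cells, so that alternative could hardly reverse them. The drop of another class was not run for named genes, and their LNP-CRISPR ratios in the kit were not put through the alternatives. The NF-kB median in bulk was 0.59 without members holding neutrophil markers. This, the Myh11 alternative and the Cas9 ratio without the highest cell at the Comp median were chosen after seeing the data.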
